A study of Mus musculus with 6 samples.

Results

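The respiratory chain and ATP synthase were followed through 97 genes of the 25655 in the deposited table, 13 of them encoded by mitochondrial DNA and 84 by nuclear DNA. Genes were taken by symbol. The mitochondrial messages had names beginning mt-N, mt-C or mt-A. The nuclear genes were named Nduf (then a, b, c, s or v and a digit), Sdh (a to d), Uqcr, Cox4 to Cox8 or Atp5. Nduf genes with other names were not included. By complex they comprised 42 genes of complex I (7 mitochondrial), 4 of complex II, 9 of complex III (1 mitochondrial), 19 of complex IV (3 mitochondrial, and with Ndufa4 placed here despite its name) and 17 of complex V (2 mitochondrial). A further 6 share the names without being subunits or are pseudogenes.

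The cells were Comma-Dβ at passage 29, a long-established line of mouse mammary epithelial origin. One arm, siID4, received a siGENOME siRNA pool against mouse Id4, and the other, NT, an ON-TARGETplus non-targeting pool, each at 20 nM with Dharmafect-4, and RNA was taken at 48 hr from 3 biological replicates per arm. The pools came from different product lines in every library, so an effect of the product and an effect of the Id4 siRNA cannot be told apart. The series' comparison is of Id4 knockdown with control.

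Each library held 19.2 to 23.1 M counts. Id4 itself stood at 135, 113 and 118 CPM (counts per M library counts, with TMM scaling) in NT and at 59.4, 62.2 and 48.2 CPM in siID4, and its log2 fold change was −1.11 with an SE of 0.10 (edgeR adjusted p = 8.65e-04). All 7 mammary epithelial markers examined were expressed, with summed levels of 2302 to 2634 CPM in NT and 2120.3 to 2468 CPM in siID4. Of these, Cdh1 and Trp63 were higher and Epcam lower, 5 of the 7 were below 0, and the median log2 fold change was −0.15 (with the block on replicate number described below, 2 higher and 4 lower). Fibroblast markers, which this line also expresses, summed to 2512 to 2748 CPM in NT and 3572 to 3686 CPM in siID4. Of the 7 fibroblast markers 6 were tested, 3 were higher (Col1a1, Col1a2, Pdgfrb) and 1 lower (Pdgfra), and 4 were higher and 2 lower with the block. Lum and Thy1 stood at low levels, with means of at most 0.0599 and 0.792 CPM in an arm. The part of these differences in the results below was not tested. Endothelial, leukocyte and adipocyte markers summed to at most 1.49, 0.271 and 0.407 CPM in any library, and Plin1 was at 0 throughout. The low endothelial sums did not overlap, at 0.470 to 0.747 CPM in NT and 1.23 to 1.49 CPM in siID4. The 1 endothelial marker tested (log2 fold change 1.35) was not called, and was higher with the block.

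The respiratory chain passes electrons from NADH (complex I) and succinate (complex II) through complex III to complex IV, where oxygen is reduced, and complexes I, III and IV pump protons across the inner mitochondrial membrane. ATP synthase, complex V, lets the protons return and makes ATP. Mitochondrial DNA supplies core membrane subunits of complexes I, III, IV and V, and nuclear genes supply every other subunit, so assembly draws on messages from both genomes. In mammary epithelium this machinery serves a tissue whose energy demand rises steeply in lactation.

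Most respiratory chain genes differed little between the arms, and the exception was Atp5l of ATP synthase. Of the 90 genes with enough counts to test, 5 passed at a Benjamini-Hochberg adjusted p under 0.05 (edgeR quasi-likelihood test, adjusted over all 13941 genes tested), against 9.55% of all genes. Atp5l, Ndufa7, Atp5c1 and Atp5a1 were lower, where 4.93% of all genes were called lower, and Ndufa3 was higher, where 4.62% were called higher. All 5 are nuclear, and 0 of the 13 mitochondrial genes passed. An unadjusted p under 0.05 was reached by 16 of the 90, beside 25.6% of all genes. In bulk RNA, fewer cells making a message and less message per cell cannot be told apart.

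The 68 nuclear subunits that did not pass had log2 fold changes between −0.19 and 0.15, and their 95% intervals lay between −0.32 and 0.34. The median log2 fold change was −0.03 over the 77 nuclear genes tested, beside 0.00 over all genes, and 50 of the 77 were below 0, beside 49.8% of all genes. With library totals in place of TMM that median was −0.0015. The libraries of the 2 arms did not overlap for 25 of the 77, beside 30.9% of all genes.

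**Figure D1:**
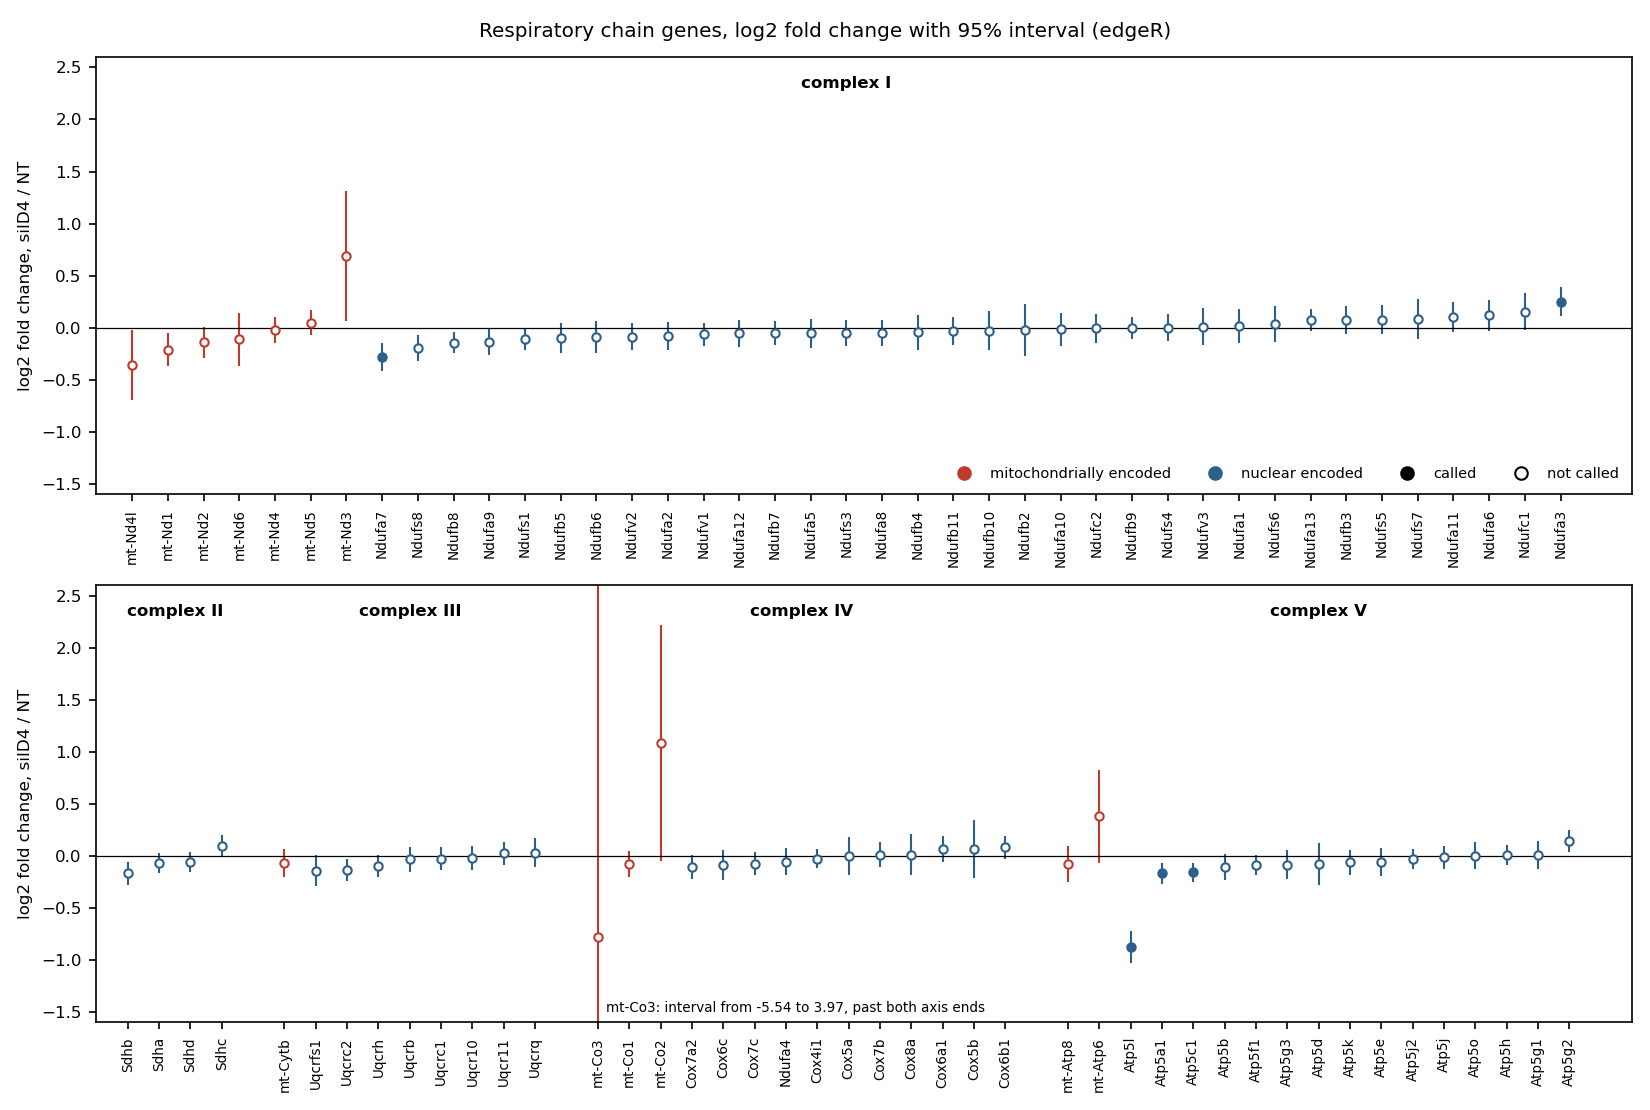
Log2 fold change of siID4 over NT for tested subunits of complexes I to V. The 95% intervals were derived from the edgeR test (3 libraries per arm). Points are red for mitochondrially encoded and blue for nuclear genes, filled where the adjusted p was under 0.05. Atp5l, at −0.87, stands below every other nuclear subunit, and the wide red intervals belong to mitochondrial genes whose reads are shared with copies on chromosome 1. The interval of mt-Co3 runs past both ends of the axis.

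Same-numbered replicates of the 2 arms deviated together, and a fit with the replicate number as a block called 36.2% of all genes. That fit called 23 of the 77 nuclear genes, 18 lower (18.3% of all genes) and 5 higher (17.9%). It also called 3 of the 13 mitochondrial genes, all lower. Among the nuclear subunits it called, the median size of the log2 fold change was 0.14, and apart from Atp5l the largest was 0.28, for Ndufa7.

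Atp5l encodes subunit g of ATP synthase, a small protein of the membrane part that takes part in joining ATP synthase into dimers. It stood at 131, 129 and 118 CPM in NT and at 73.2, 70.7 and 62.7 CPM in siID4. Every siID4 library lay far below every NT library. On average Atp5l fell from 126 ± 7.11 to 68.9 ± 5.47 CPM (SD, n = 3), or to 0.546 of the control level. The log2 fold change was −0.87 with an SE of 0.07 (95% interval −1.03 to −0.72, edgeR adjusted p = 3.91e-04). Atp5l (ENSMUSG00000038717) is a protein-coding gene at chr9:44912557-44920742 on the minus strand of mm10. Its fall was the 32nd largest among the 687 genes called lower, and its adjusted p the 14th smallest of all genes tested. It passed in each of the 6 fits that left out a library, with adjusted p between 3.35e-04 and 0.00607. A copy, Gm10221, has 100% of its 31-base words in Atp5l, where they make 4.32% of the words of all annotated Atp5l transcripts. Gm10221 held a mean of 47.9 counts per library, beside 2078 for Atp5l. With such copies added in, the log2 fold change of Atp5l was −0.88 (adjusted p = 2.17e-04).

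The other ATP synthase genes lay close to control. The F1 head, where ATP is made, has its catalytic and structural subunits encoded by Atp5b and Atp5a1 and its rotating stalk by Atp5c1, Atp5d and Atp5e. Atp5c1 (gamma subunit, chr2:10056016-10080510, minus strand) stood at 228, 232 and 234 CPM in NT and 205, 208 and 208 CPM in siID4, arms that did not overlap. Its log2 fold change was −0.16 (SE 0.04, adjusted p = 0.0361). Atp5a1 (alpha subunit) stood at 766, 719 and 746 CPM in NT and 683, 647 and 655 CPM in siID4, again without overlap. Its log2 fold change was −0.17, with an SE of 0.04 (adjusted p = 0.0446). The siID4 means were 0.896 and 0.889 of control for Atp5c1 and Atp5a1. Both lost their call in every fit that left out a library, with adjusted p from 0.0543 to 0.137 for Atp5c1 and 0.0665 to 0.184 for Atp5a1, and with library totals (0.0679 and 0.0620).

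All 5 F1 genes had a log2 fold change below 0, with a median of −0.10. Atp5b, the catalytic beta subunit and the most abundant nuclear gene of the chain per length, stood at 1255, 1310.0 and 1411 CPM in NT and 1187, 1216 and 1295 CPM in siID4. Its arms overlapped, and its log2 fold change of −0.10 did not pass (adjusted p = 0.283). With the replicate block it did (0.00200), as did Atp5a1 and Atp5c1.

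The remaining 9 nuclear ATP synthase genes, beside Atp5l, split in direction. The c ring, the rotor that protons turn, is encoded by 3 genes whose mature protein is the same. Of these Atp5g2 went from 135 ± 3.45 to 149 ± 4.52 CPM, a log2 fold change of 0.14 that did not pass (adjusted p = 0.0833), although it did with library totals (0.0424) and with the block (4.04e-04). Atp5g3 had −0.08 and Atp5g1 0.01, so the values of the 3 genes lay on both sides of 0. The peripheral stalk genes Atp5f1, Atp5o, Atp5h and Atp5j ranged from −0.09 to 0.01. Over all 15 nuclear genes of complex V the median was −0.06, and 3 were called lower and 0 higher. That is 20.0% called, beside 9.55% of all genes. With the block 1 was higher and 6 lower, or 46.7% beside 36.2% of all genes. Summed, the 15 genes made 3851, 3894 and 4051 CPM in NT and 3606, 3604 and 3742 CPM in siID4.

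**Figure D2:**
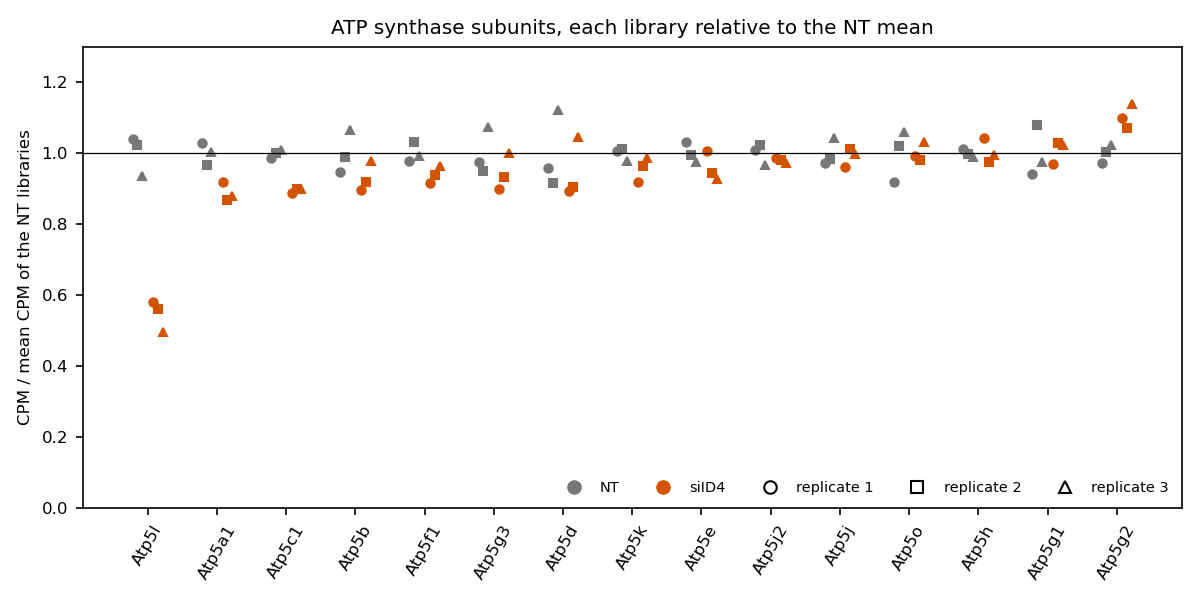
CPM of each nuclear ATP synthase subunit in each of the 6 libraries, divided by the mean of the 3 NT libraries (grey NT, orange siID4, marker shape for replicate number). Atp5l is at 0.546 of control on average, and the other subunits stay near 1.

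In complex I, 1 of 35 nuclear genes was higher and 1 lower, both accessory subunits that surround the catalytic core. That is 5.71% called, beside 9.55% of all genes. Ndufa7 (chr17:33824572-33838317, plus strand) stood at 46.9, 47.1 and 45.2 CPM in NT and 39.5, 38.2 and 36.8 CPM in siID4. No siID4 library reached the lowest NT value, and the log2 fold change was −0.28 (SE 0.06, adjusted p = 0.0194). Ndufa7 did not pass without NT replicate 2 (0.0811), siID4 replicate 2 (0.0907) or siID4 replicate 3 (0.0667). Ndufa3 (chr7:3617373-3620327, plus strand) went the other way, from 30.4, 32.0 and 31.9 CPM to 38.9, 36.5 and 37.0 CPM. Its log2 fold change was 0.25 (SE 0.06, adjusted p = 0.0378), and it lost its call in every fit that left out a library (0.0820 to 0.118).

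The 7 nuclear core subunits of complex I, which carry flavin and iron-sulfur clusters, had a median log2 fold change of −0.06, and 0 passed (3 at an unadjusted p under 0.05). Ndufs8, an iron-sulfur protein, was nearest to a call, at 49.5, 48.8 and 50.2 CPM in NT and 43.4, 42.3 and 44.2 CPM in siID4. Its arms stood apart, with a log2 fold change of −0.19 and an adjusted p of 0.0595 (0.0377 with a correction for gene length). Ndufs1, the largest core subunit, had −0.11 (0.177), Ndufv1, which binds the flavin that takes electrons from NADH, had −0.06, and Ndufs7, an iron-sulfur protein, had 0.08 (0.600). Core subunits thus lay on both sides of 0. Ndufc1, an accessory subunit, had 0.15 (0.260), and Ndufb8, the most abundant per length, had −0.15 (0.0739). With the block, 3 nuclear complex I genes were higher, Ndufa3 and Ndufc1 among them, and 5 lower (Ndufa7, Ndufs8, Ndufb8, Ndufa9, Ndufs1). That is 22.9%, beside 36.2% of all genes.

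Complex II, the 1 complex with no mitochondrial subunit, also serves the citric acid cycle. In all 4 genes the arms stood apart, beside 30.9% over all genes, and 0 passed in edgeR (1 at an unadjusted p under 0.05, and 0 in DESeq2). Sdhb, the iron-sulfur subunit, stood at 114, 116 and 124 CPM in NT and 106, 103 and 108 CPM in siID4, a log2 fold change of −0.17 (adjusted p = 0.0656, and 0.0371 with a correction for gene length). Sdha, the flavoprotein, had −0.07 and Sdhd, a membrane anchor, −0.06. Sdhc, the other anchor, was on the opposite side, at 88.0, 88.7 and 84.7 CPM in NT and 94.3, 94.2 and 91.1 CPM in siID4 (0.10, adjusted p = 0.219). With the block Sdhb was lower (1.08e-04) and Sdhc higher (0.0198).

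Of the 8 nuclear genes of complex III, 0 passed in edgeR or DESeq2 (1 at an unadjusted p under 0.05). Uqcrfs1, the Rieske iron-sulfur protein, went from 73.7 ± 5.38 to 66.8 ± 3.00 CPM (log2 fold change −0.14, adjusted p = 0.211). Uqcrc2, a core protein, went from 132 ± 3.10 to 121 ± 4.05 CPM (−0.13, 0.107), while its partner Uqcrc1 had −0.03. Uqcrh, the most abundant per length, had −0.10, and at the upper end Uqcrq and Uqcr11 had 0.03 and 0.02. The block called Uqcrfs1 (0.00366), Uqcrc2 (0.00158) and Uqcrh lower, 37.5% of the 8 genes beside 36.2% of all genes.

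Complex IV genes lay near control. Of its 11 tested nuclear genes 0 passed in edgeR or DESeq2, 0 reached an unadjusted p under 0.05, and the median log2 fold change was −0.0047 with TMM and 0.0244 with library totals. Values ran from −0.11 for Cox7a2 and −0.09 for Cox6c to 0.07 for Cox5b and 0.08 for Cox6b1. Cox4i1, which regulates the enzyme, stood at 244, 249.5 and 255 CPM in NT and 248, 241 and 246 CPM in siID4, with overlapping arms. Ndufa4, first assigned to complex I and now counted with complex IV, went from 178 ± 11.6 to 171 ± 6.97 CPM. The block called Cox7a2 and Cox6c lower, 18.2% of the 11 genes beside 36.2% of all genes.

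Several subunits exist as tissue isoforms, and the ubiquitous forms were those expressed here. The muscle or heart forms Cox6a2, Cox7a1 and Cox8b, the hypoxia-linked Cox4i2 and the testis form Cox6b2 were too low to test. Per length Cox4i2 stood at 0.438 RPKM beside 334 RPKM for Cox4i1. Cox4i2 reached at most 0.498 CPM in a library and Cox7a1 at most 0.313 CPM. Cox6b2 and Cox8b had 0 counts in all 6 libraries, which allows up to 3 counts, or 0.130 to 0.156 CPM, in a library. Ndufa4l2, an isoform of Ndufa4 known as a hypoxia-responsive gene, was tested and stood at 5.82, 3.24 and 2.46 CPM in NT and 5.13, 4.30 and 3.55 CPM in siID4, with overlapping arms. Cox7a2l, a factor in joining complexes III and IV, had −0.08 (adjusted p = 0.468) and was lower with the block. The pseudogenes Atp5l-ps1 and Atp5l2-ps were too low to test.

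Levels can be compared between genes per length, as RPKM (CPM divided by gene length in kilobases, mean of 6 libraries). Nuclear genes of complex I lay between 16.3 (Ndufa11) and 138 (Ndufb8), with a median of 69.3, and those of complex II between 49.3 (Sdhc) and 97.9 (Sdhb). Complex III genes lay between 51.5 (Uqcrfs1) and 215 (Uqcrh). Complex IV genes lay between 103 (Cox5a) and 355 (Ndufa4), with a median of 258, and complex V genes between 115 (Atp5e) and 685 (Atp5b), with a median of 174. Their lower ends overlapped the upper end of complex I. Mitochondrial messages reached 9816 for mt-Co1. The lowest mitochondrial values, 48.1 for mt-Co3, 71.7 for mt-Nd3, 98.1 for mt-Co2 and 122 for mt-Atp6, belong to genes with near-identical copies in the nuclear genome.

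**Figure D3:**
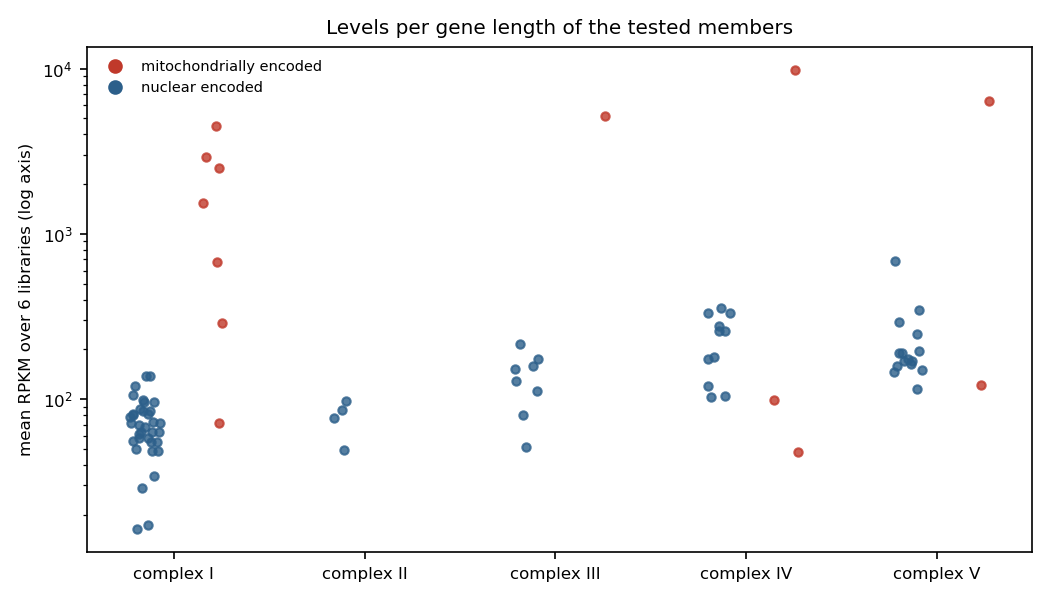
Mean RPKM over the 6 libraries of each tested gene by complex, on a log axis, blue for nuclear and red for mitochondrially encoded genes as deposited. The medians of complex IV (258) and V (174) lie above those of complex I (69.3) and II (81.5) while the ranges of complexes I, IV and V overlap, and the red points under 200 are mitochondrial genes that share their reads with a copy on chromosome 1.

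A block of chromosome 1 carries inserted copies of mitochondrial genes, annotated as unprocessed pseudogenes, and for 5 of the 13 mitochondrial genes the copy matches over nearly the whole message. RSEM, named in the submitters' processing notes, divides reads that fit several genes by estimate. The ends of the messages are shown because they are nearly all that separates gene from copy. Below, capitals mark the last bases of the mitochondrial message that the copy's annotated span lacks, and in mt-Nd3 and its copy the base that differs, T3C, counted from the first base of the message (sequences of GENCODE M21 on GRCm38, 5′ to 3′).
mt-Atp6: taagcctatatctacatgataatacaTAA
mt-Co2: tcgaaaactgatctgcttcaataattTAA
mt-Co3: atacgtctccatttattgatgaggatctT
mt-Nd4l: tccaaaatctcaacctactacaatgcTAA
mt-Nd3: atTaacctgtacactgttatcttcattaa
Gm28438: atCaacctgtacactgttatcttcattaa

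Before these ends the match was complete over 678 bases between mt-Atp6 (chrM:7927-8607) and Gm10925 (chr1:24613974-24614651), 681 bases between mt-Co2 (chrM:7013-7696) and Gm28661 (chr1:24614885-24615565), 783 bases between mt-Co3 (chrM:8607-9390) and Gm28437 (chr1:24613189-24613971), and 294 bases between mt-Nd4l (chrM:9877-10173) and Gm10222 (chr1:24612407-24612700). Between mt-Nd3 (chrM:9459-9806) and Gm28438 (chr1:24612775-24613119) 344 of 345 bases were identical. The copies lie on the minus strand. In the deposited table the copy held most of the counts of each pair. It took 98.0% to 98.9% of the summed CPM for mt-Atp6, 98.1% to 99.6% for mt-Co2, 98.1% to 99.998% for mt-Co3, 89.8% to 97.5% for mt-Nd3 and 57.7% to 73.8% for mt-Nd4l. A sixth gene, mt-Co1, shares only part of its length with Gm29216, which took 5.69% to 7.21%. From which genome the shared reads came was not tested.

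The split between gene and copy moved from library to library. Counted on the mitochondrial gene, mt-Co3 (cytochrome oxidase subunit 3) stood at 62.5, 0.104 and 79.9 CPM in NT and 26.96, 56.6 and 0.0876 CPM in siID4. In each arm 1 library was near 0. Summed with the copy, the same libraries held 4485, 4518 and 4103 CPM and 4213, 4350.4 and 4274 CPM. The 6 summed values lay within a narrow range, and the log2 fold change went from −0.78 (adjusted p = 0.839) to −0.03 (0.762).

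For mt-Co2 and mt-Nd3 the sum changed the direction. On its own row mt-Co2 (subunit 2) went from 25.9, 36.0 and 67.0 CPM to 51.9, 101 and 121 CPM, a log2 fold change of 1.08 (adjusted p = 0.214), and summed it was −0.08 (0.409, and 0.0399 with the block). On its own row mt-Nd3, a small core subunit of complex I, went from 11.4, 26.7 and 19.3 CPM to 27.4, 31.1 and 33.7 CPM, with every siID4 library above every NT library (0.69, adjusted p = 0.160, and 0.0479 without NT replicate 2). Summed, it went from 449.6, 426 and 376 CPM to 362, 343 and 330.2 CPM, with every siID4 library below every NT library, and the fall of −0.27 (SE 0.07) passed at an adjusted p of 0.0355 (6.02e-10 with the block). The summed mt-Nd3 passed without NT replicate 3 (0.00720) or siID4 replicate 1 (0.0443), and not without NT replicate 1 (0.0702), NT replicate 2 (0.126), siID4 replicate 2 (0.140) or siID4 replicate 3 (0.0934). It was below 0 in each of these 6 fits. The sums were formed after these counts had been seen.

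The other sums stayed near control. Summed mt-Atp6, the proton channel subunit of ATP synthase, went from 6019.9 ± 528 to 5777 ± 114 CPM (log2 fold change −0.06, adjusted p = 0.613), where its own row had 0.38 (0.263, and 0.00896 without siID4 replicate 1). Summed mt-Nd4l had −0.02 (0.877, and 0.646 with the block). Its own row had −0.36 (0.174 in edgeR, 0.0470 in DESeq2, 0.0402 without siID4 replicate 1 and 2.74e-11 with the block). With copies summed, the 13 mitochondrial log2 fold changes lay between −0.27 and 0.05, beside −0.78 to 1.08 on the deposited rows, and the median was −0.07 either way. That median rested on single NT libraries: with copies summed it was −0.0116 without NT replicate 1 and −0.1196 without NT replicate 3, and on the deposited rows −0.0091 and −0.1196.

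**Figure D4:**
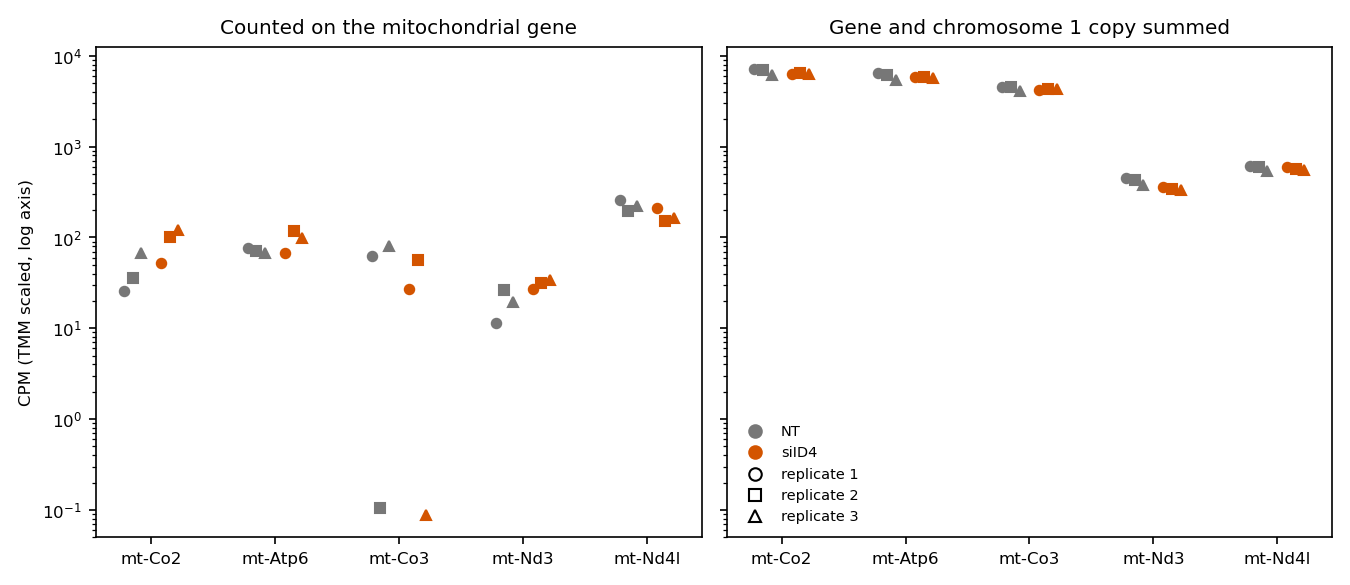
CPM per library on a log axis of the 5 mitochondrial genes with near-complete copies, counted on the mitochondrial gene alone (left) and summed with the chromosome 1 copy (right), grey for NT and orange for siID4, with marker shape for replicate number. On the left mt-Co3 falls to 0.104 and 0.0876 CPM in 1 library of each arm, and on the right the libraries of each gene lie close together.

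The 7 mitochondrial genes without such a copy, or with few counts on it, were read from their own rows. The copy of mt-Nd4, Gm28439, held at most 12.35 counts in a library. mt-Nd1, a core membrane subunit of complex I, stood at 5155, 4582 and 4205 CPM in NT and 4106, 3949 and 3980.1 CPM in siID4. The arms did not overlap, the log2 fold change was −0.21 (SE 0.07), and the adjusted p was 0.0901 (0.0459 in DESeq2, 8.89e-04 with the block). Without NT replicate 3 it was −0.28 (0.0183) and without NT replicate 1 −0.13 (0.177). mt-Nd2, another membrane subunit, had −0.14 (0.231, 0.00288 with the block, and 0.0246 without NT replicate 3).

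The others were closer to 0. mt-Cytb, the cytochrome b of complex III, had −0.07, mt-Atp8 of ATP synthase −0.08, mt-Nd6 −0.11, mt-Nd4 −0.02 and mt-Nd5 0.05, all with adjusted p of 0.496 or above. mt-Co1, the catalytic subunit of complex IV, had −0.07 (0.442) on its own row and −0.06 with its copy. mt-Nd6 is the 1 gene of the 13 read from the opposite strand of mitochondrial DNA. Per length its level of 290.5 RPKM was below the 1535 RPKM of mt-Nd5 beside it. The libraries were poly(A) selected, and the cause of this difference was not tested. On the deposited rows 0 of 13 passed in edgeR and in limma-voom, 3 had an unadjusted p under 0.05, and DESeq2 called 2. The share of all genes that DESeq2 called is not given here, so its count has no base rate beside it.

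The proportion of the genomes was followed in counts. Mitochondrial genes made 3.98%, 3.76% and 3.42% of counts in NT and 3.60%, 3.63% and 3.53% in siID4. Nuclear respiratory genes made 0.875%, 0.890% and 0.899% in NT and 0.856%, 0.867% and 0.881% in siID4, lower in siID4 in each of the 3 same-numbered pairs although the arms overlapped. With TMM scaling their sums did not overlap, at 8855, 8926 and 9127 CPM in NT and 8518, 8512 and 8752 CPM in siID4. The 62 tested nuclear genes outside complex V summed to 5003, 5032 and 5076 CPM in NT and 4912, 4908 and 5010.3 CPM in siID4, with overlapping arms. The ratio of mitochondrial to nuclear counts was 4.55, 4.22 and 3.81 in NT and 4.20, 4.19 and 4.01 in siID4. With copies summed it was 6.77, 6.40 and 5.69 in NT and 6.31, 6.34 and 6.04 in siID4. In both versions every siID4 library lay inside the range of NT, and NT replicates 1 and 3 were the highest and lowest. Most mitochondrial messages carry short poly(A) tails, and the libraries were poly(A) selected.

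Promoters were compared for what the nuclear subunits share. RefSeq windows on GRCm38.p6, from 250 bases before to 50 after the start, were found for 64 of the 78 nuclear subunits. The motif of NRF1 (GCGCA and GCGC with any 1 base between them, both strands), a factor known for activating respiratory genes, was in 17 of 64 windows, or 26.6%, beside 5.19% of the 27025 genes in the table. Examples are shown for subunits of complexes II, IV and V, with the motif in capitals and read on the gene's own strand.
Atp5c1: tgagctcccGCGCACGCGCactgagtcc
Atp5g2: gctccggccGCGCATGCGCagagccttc
Sdha: gtttacaggGCGCAGGCGCaccaccact
Cox6a1: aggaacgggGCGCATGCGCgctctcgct

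These stretches lie at chr2:10080431-10080458, chr15:102671071-102671098, chr13:74350320-74350347 and chr5:115349102-115349129, all on the minus strand. YY1 (AAGATGGCG) was in 7 of 64 windows, 10.9% beside 1.64% of all genes, the ETS motif bound by GABP (CCGGAAGT) in 5, 7.81% beside 4.31%, and the ERR motif (TCAAGGTCA) in 2, 3.13% beside 0.466%, each on both strands. The letters of the TATA box (TATAAA, sense strand, anywhere in the window) were in 3, 4.69% beside 9.77%. These matches began at offsets of −166 (Ndufa3), −99 (Ndufs7) and 4 (Cox8b) bases from the start. Of the called genes, Atp5c1 held the NRF1 motif and Ndufa3 the TATA letters, and the windows of Atp5l and Ndufa7 held none of the 5. The called gene Atp5a1 was not matched to a window by symbol. Among the tested subunits that were, the 17 with the NRF1 motif had a median log2 fold change of −0.03 and 1 call. The 44 without it had −0.03 and 3 calls.

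Genes that serve the chain were counted in the same way, and their calls stand beside 9.55% of all genes, or 36.2% with the block. Of 50 tested assembly factors, which build the complexes, 0 passed in edgeR (6 at an unadjusted p under 0.05, and 8 higher and 3 lower with the block). Of 31 genes that maintain and transcribe mitochondrial DNA 0 passed (2 at an unadjusted p under 0.05, and 3 lower with the block), among them Tfam (0.02), Polrmt (−0.06) and Lrpprc, which stabilises mitochondrial messages (−0.12, adjusted p = 0.197, 0.00209 with the block). Of 77 mitochondrial ribosomal proteins Mrpl33 was lower (−0.24, adjusted p = 0.0413, and 0.0559 to 0.139 when a library was left out). With the block 4 rose and 4 fell.

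Of 27 tested genes for electron carriers, cytochrome c and ATP export, which feed and drain the chain, 1 was higher and 2 lower. That is 11.1%, near the 9.55% of all genes (4 higher and 10 lower with the block, 51.9% beside 36.2%). Etfdh, which passes electrons from fatty acid oxidation to ubiquinone, went from 49.8 ± 2.26 to 65.2 ± 1.51 CPM (0.39, adjusted p = 0.00440). Slc25a4 and Slc25a5, the carriers that exchange ATP for ADP, were lower, at −0.23 (0.00909) and −0.16 (0.0432). Slc25a4 did not pass without siID4 replicate 2 (0.0567), and Slc25a5 did not pass when any library was left out (0.0684 to 0.188). Cyc1, cytochrome c1 of complex III, had −0.13 (0.193, 8.43e-04 with the block), and Cycs, cytochrome c, −0.07.

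Elsewhere in the mitochondrion, Timm17a, part of the import channel of the inner membrane, was the 1 call among 23 import genes, going from 74.8 ± 4.89 to 55.9 ± 2.21 CPM (−0.42, adjusted p = 0.00483). With the block 9 import genes were lower. Fh1, the fumarase of the citric acid cycle, was the 1 call among 19 genes of that cycle and pyruvate dehydrogenase (−0.28, adjusted p = 0.0309). It passed without NT replicate 1 or siID4 replicate 3 and not without NT replicate 2 (0.120), NT replicate 3 (0.0840), siID4 replicate 1 (0.0847) or siID4 replicate 2 (0.123). With the block 1 gene of this list was higher and 9 lower.

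Among 12 tested regulators, Myc was higher, going from 142 to 170.4 CPM (0.26, adjusted p = 0.0148, and 0.0740 without NT replicate 2). The coactivators Ppargc1a (0.19), Ppargc1b (−0.17) and Pprc1 (0.01) did not pass, nor did Nrf1 (−0.08), Gabpa (−0.06), Yy1 (−0.02), Esrra (−0.21, adjusted p = 0.131) or Hif1a (−0.04). With the block Ppargc1a passed upward (0.0109) and Esrra downward (0.00867). Of 14 tested genes of the mitochondrial stress response 2 were lower, Psat1 (−0.29, adjusted p = 0.00478) and Asns (−0.26, 0.0101, and 0.0663 without siID4 replicate 2), which make serine and asparagine. With the block 3 of these were higher and 6 lower.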

How the data were processed

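RNA from 6 libraries was sequenced after poly(A) selection with a strand-marking kit, per the labels' protocols. The authors deposited expected counts per gene in 1 table. They used RSEM with STAR and cutadapt on mm10, per the submitters' processing notes. For the annotation and the strand setting of the counting, the sources used here give nothing. Without that setting, reads of genes that overlap on opposite strands cannot be told apart. This touches Atp5a1 over 158 bases (Haus1), Ndufa3 over 4 (Tfpt) and Atp5l over 544 (Gm30934). Haus1 and Tfpt held means of 310.5 and 233.5 counts per library, and Gm30934 was absent from the deposited counts. Values that were not whole, 10.0% to 10.6% per library, were rounded. Libraries of the same arm differed by more than sampling noise (chi-square of 5.10 or more per gene).

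edgeR 4.0.16 in R 4.3.3 (quasi-likelihood, robust, TMM, filterByExpr) tested 13941 genes with group as the only term. Calls are at a Benjamini-Hochberg adjusted p under 0.05 over all genes, and unnamed adjusted p-values are from that fit. Gene positions and the 97 members were matched to GENCODE M21, on GRCm38 (mm10), by identifier.

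Equal replicate numbers were taken to pair the libraries, since deviations from the group means correlated at 0.42, 0.14 and 0.38 across genes. Between unequal numbers the correlations ran from −0.37 to −0.02. Deviations from a group mean cancel within each arm, so positive values at equal numbers force negative ones elsewhere. The negative values are therefore no separate support for the pairing. This pairing by number was read from these same counts. The labels do not say what is shared. Where a fit blocking on that number changes the call of a member, it is given, singly or as a count per complex. Other settings were DESeq2 1.42.0, limma-voom 3.58.1, other scalings and filters, a gene length offset and leaving out each library. Summing 27 copies (at least 50% of the copy's 31-base words in the gene) was added after the counts had been seen. The shares ran from 52.6% to 100%, and among the copies Gm11273 and Gm20538 are annotated as protein coding. Scripts were tested on simulated counts.

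Genes named were Id4, every mitochondrial and every called member, the 2 lowest and 2 highest nuclear members of each complex, the most abundant per length, core subunits, isoforms, up to 4 called genes of each related list and a fixed set of regulators. The members and lists were chosen with earlier results of these data known. Protein sequences were not used here, and 1 core subunit is not reported singly here. The p-values set the difference between the arms against the spread between these libraries, which is estimated partly from other genes. With 3 against 3, an exact permutation test of a single gene cannot go below 0.1. Limits on counts of 0 cover counting error only.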

Additional observations from a re-analysis of the deposited data

How the results depend on the processing

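The fall of Atp5l held in every alternative fit. The replicate block raised the count of genes called from 1331 to 5040 (5244 with a length offset, 5068 with copies summed). With the block, nuclear members called went from 5 to 23 (27 with length offset, 24 with copies), those lower from 4 to 18 (23, 18) and those higher from 1 to 5 (4, 6). Mitochondrial members called went from 0 to 3 with the block (5 with length offset, 4 with copies), 2 in DESeq2, 1 with no filter and 1 with copies summed. By complex, the block gave 11 for complex I (13 with length offset, 11 with copies), 2 for II (3, 2), 3 for III (4, 3), 2 for IV (3, 4) and 7 for V (8, 7). Further counts were 4 in complex I with DESeq2, 1 in complex II with a length offset, 3 nuclear members and 1 in complex V with no filter, and 2 nuclear members lower and 2 higher with library totals (2 lower with no filter). The shares of all genes called in DESeq2, with no filter, with library totals and with the length offset alone are not given here. Leaving out a library gave 445 to 1351 genes, 0 to 2 mitochondrial members, 1 to 2 nuclear members (1 to 2 lower, 0 higher), 0 to 3 in complex I and 1 to 2 in complex V.

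Medians of log2 fold change with library totals were −0.0015 for nuclear members, 0.0003 for complex I, −0.0337 for II, −0.0048 for III, 0.0139 for IV and −0.0346 for V, each complex with its mitochondrial genes. With the length offset they were −0.0521, −0.0511, −0.0915 and −0.0550 for nuclear members and complexes I to III, and −0.0514, −0.0495, −0.0915 and −0.0544 with the block added. Without a library they ran from −0.0462 to −0.0321 for nuclear members, −0.0503 to −0.0225 for complex I, −0.0638 to −0.0264 for III, −0.0374 to 0.0006 for IV, −0.0598 to −0.0358 for V and −0.1196 to −0.0091 for mitochondrial members. With copies summed, mt-Nd3 turned from 0.69 to −0.27 (−0.27 with the block, −0.31 without siID4 replicate 1, and −0.34 to −0.22 over all fits that left out a library) and mt-Co2 to −0.0804 with the block. The causes were not tested. No other call changed direction. At 19.2 to 23.1 M counts, 7 nuclear members had too few counts to test.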
